A study of Homo sapiens with 18 samples.

Results

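The comparison described here is between TRIM27 knockout MDA-MB-231 cells harvested 48 h after transfection of an siRNA against PARP1 (siPARP1, labelled 100 pM, delivered with Lipofectamine RNAiMAX) and untreated cells of the same knockout, with 3 libraries in each group. Its members are the genes with at least 1 FPKM (fragments per kilobase of transcript, scaled to the size of the library, so that both gene length and depth are corrected for) in at least 3 of these 6 libraries. They numbered 14606 of the 62830 genes listed, and all of them were among the 15764 genes tested. The rule used the level of a gene and no test of the difference, but the 3 libraries of 1 group can meet it alone. Some low genes are thus members only through the group where they are high. Among them PDE7B-AS1, MIR137, LINC00518, HSPA1A and SERPINB2 are so through the siPARP1 libraries, and DENND2A, ELF3 and ANKRD2 through the untreated ones. The separation of their groups was then fixed by the rule. What the rule reads is the third-highest of the 6 values of a gene. Just inside it lay MTMR8 and METTL15P1, both with a third-highest value of 1.00 FPKM, and just outside it ZNF551 and RGS9, at 0.999885 and 0.998911 FPKM.

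MDA-MB-231 is an established human breast cancer line of mesenchymal character that lacks the oestrogen and progesterone receptors. TRIM27 is a tripartite motif protein that attaches ubiquitin to its targets. For reference, the same siRNA was given in the same way to wild-type cells (3 libraries, against 3 untreated wild-type libraries), and knockout cells were also sequenced after 24 h of 2 µM olaparib, an inhibitor of PARP1 and PARP2 (3 libraries). All libraries carry the same batch label and were made from RNA selected with oligo(dT) beads. The protocols speak of a non-targeting siRNA, but none of the libraries used here is labelled with it, so the effects of loss of PARP1, of transfection, of the siRNA as such and of the time in culture cannot be told apart in any value below. The labels do not say whether the knockout line is 1 clone or a pool, nor whether replicate libraries were grown as separate cultures; the p-values therefore reflect the spread between these samples alone, and that spread may be technical.

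PARP1 is the most abundant of the nuclear enzymes that bind DNA breaks and, using NAD+, attach chains of ADP-ribose to themselves, to histones and to repair proteins. The chains bring in the factors of single-strand break and base excision repair and open chromatin around the lesion, and they are removed again by hydrolases. PARP1 also binds promoters and takes part in transcription, including that of NF-kB and heat shock genes. An siRNA is loaded into an Argonaute protein and directs the cleavage of the RNA it matches.

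PARP1 RNA (ENSG00000143799, chr1:226360691-226408079, minus strand, GRCh38) fell to 16.8% of its untreated level. It measured 58.9, 51.5 and 55.2 FPKM in the untreated libraries and 8.71, 9.58 and 9.46 FPKM under siPARP1. The mean fell from 55.2 ± 3.70 to 9.25 ± 0.472 FPKM (SD, n = 3; log2 change -2.45, SE 0.0685, adjusted p = 1.37e-12), and the groups were far apart. The fall in wild-type cells was of -2.29, and the 2 falls did not pass a test of their difference (interaction -0.17, adjusted p = 0.382). The transcripts of the gene that could be matched to the annotation held only 8.77 of the 55.2 FPKM in untreated cells, and over these alone the change was -0.73 with an adjusted p of 0.212. TRIM27, which is not a member, was at 0.665, 0.547 and 0.658 FPKM in the untreated knockout libraries and at 0.946, 0.982 and 1.04 FPKM under siPARP1, a small rise from a low level (log2 change 0.29, adjusted p = 0.0403 in a fit of 34548 genes with no filter on low values). PAX6, a transcription factor of eye and brain that is also not a member, was at 0.967, 1.18 and 0.934 FPKM without treatment and at 0.428, 0.385 and 0.698 FPKM under siPARP1 (log2 change -0.43, adjusted p = 0.0104 in the same fit).

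The libraries of each group resembled each other, with correlations across genes of 0.982 to 0.986 within a group and of 0.945 to 0.951 between the groups. Between 13243 and 13302 genes reached 1 FPKM in the untreated libraries, and 13498 to 13588 did so under siPARP1. Loci without a gene name held 47.8 to 49.3% of the summed FPKM of untreated libraries and 43.4 to 44.6% under siPARP1. The share of annotated FPKM that came from the mitochondrial genome was 19.7 ± 0.633% in untreated cells and 27.6 ± 0.520% under siPARP1 (SD, n = 3). These shifts in the makeup of the libraries move with every result below. Scaled to annotated nuclear genes, 4523 members were called higher and 3301 lower, in a fit without mitochondrial genes and unnamed loci. Beyond such scaling the part of the shifts in the results was not tested. FPKM values are shares of a library, and fewer cells of a type cannot be told apart from less RNA per cell in bulk RNA. Of the markers of the cell line, VIM was at 2322 and 1900 FPKM, CD44 at 196 and 273 FPKM and AXL at 138 and 73.8 FPKM, on average in untreated and siPARP1 libraries. The epithelial markers CDH1 and EPCAM and the oestrogen receptor ESR1 had group means of 0.0193 to 0.228 FPKM. Of the 12 leukocyte markers looked for only CD68 was a member, CD3E, FCGR3A and MS4A1 were listed at 0, and the summed level was 8.17 to 10.0 FPKM in untreated and 9.79 to 10.6 FPKM in siPARP1 libraries.

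Of the 14606 members, 4815 rose and 3466 fell under siPARP1 (limma on log2(FPKM + 1), Benjamini-Hochberg adjusted p under 0.05 over all 15764 genes tested), and 6325 passed in neither direction. Among all genes tested 31.9% were called higher and 22.8% lower, so 54.7% were called in all, and any list of genes has to be read against these shares. In wild-type cells 29.5% were called higher and 22.3% lower under siPARP1, and the test of the difference between genotypes (the interaction) called 2.74% more positive and 2.52% more negative in knockout cells. Most changes were small. The median size of a called change was 0.54 on the log2 scale, and 583 members rose and 527 fell by at least 2-fold. The median over all members was 0.07. For 7944 of the called members the 3 siPARP1 libraries lay entirely above or entirely below the 3 untreated ones; of all genes tested, called or not, 34.7% lay entirely above and 25.3% entirely below. A change was called for 49.7% of the 2005 members with a mean under 2 FPKM, for 60.6% of the 3252 members between 20 and 100 FPKM and for 54.0% of the 936 members above 100 FPKM.

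**Figure D1:**
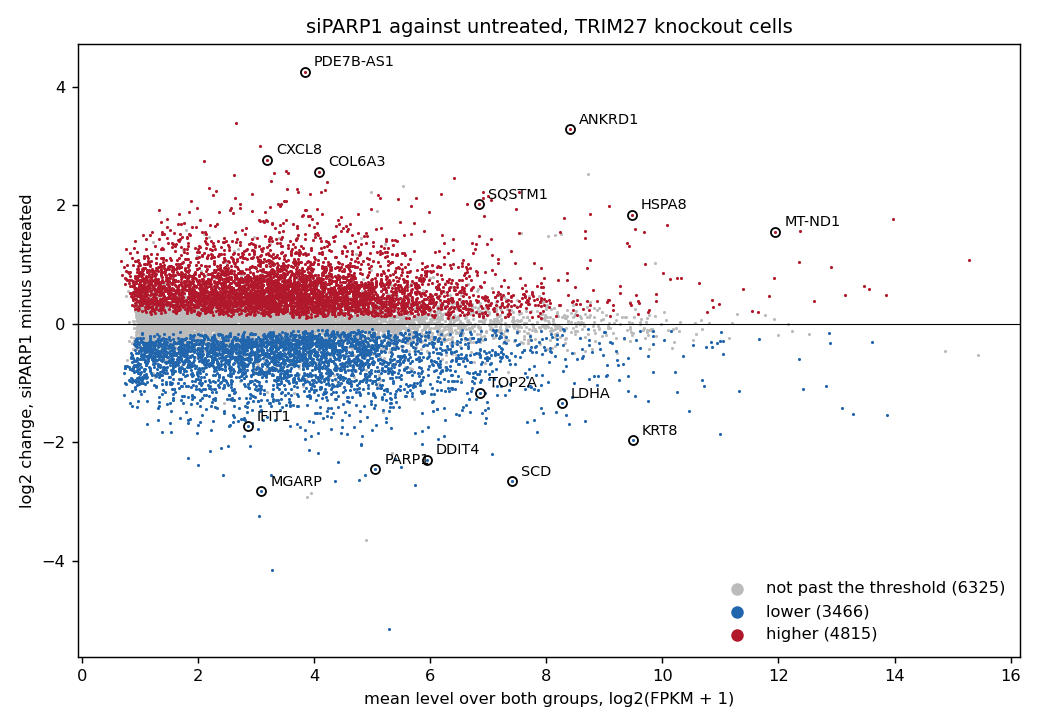
Each point is 1 of the 14606 members in TRIM27 knockout cells, with the mean level over both groups on the horizontal axis (log2(FPKM + 1)) and the change under siPARP1 on the vertical axis (log2, siPARP1 minus untreated). Red points are the 4815 members called higher, blue points the 3466 called lower and grey points the other 6325; ANKRD1 and PDE7B-AS1 lie among the highest rises and SCD, MGARP and PARP1 among the deepest falls.

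The members were grouped into 37 lists of genes with a shared role. Of the lists with at least 10 measured members, those with most of them lower were mitosis, DNA replication, homologous recombination, cholesterol and fatty acid synthesis, the ATF4 stress response, hypoxia and glycolysis, YAP targets and epithelial markers. Those with most of them higher were the lysosome, the respiratory chain in both of its genomes, NF-kB, immediate early genes, NRF2 targets, small RNA silencing, the unfolded protein response and heat shock chaperones. The lowest median of a list was that of mitosis, at -0.95, and the highest that of the mitochondrial genome, at 0.68, against a median of 0.07 over all genes tested.

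**Figure D2:**
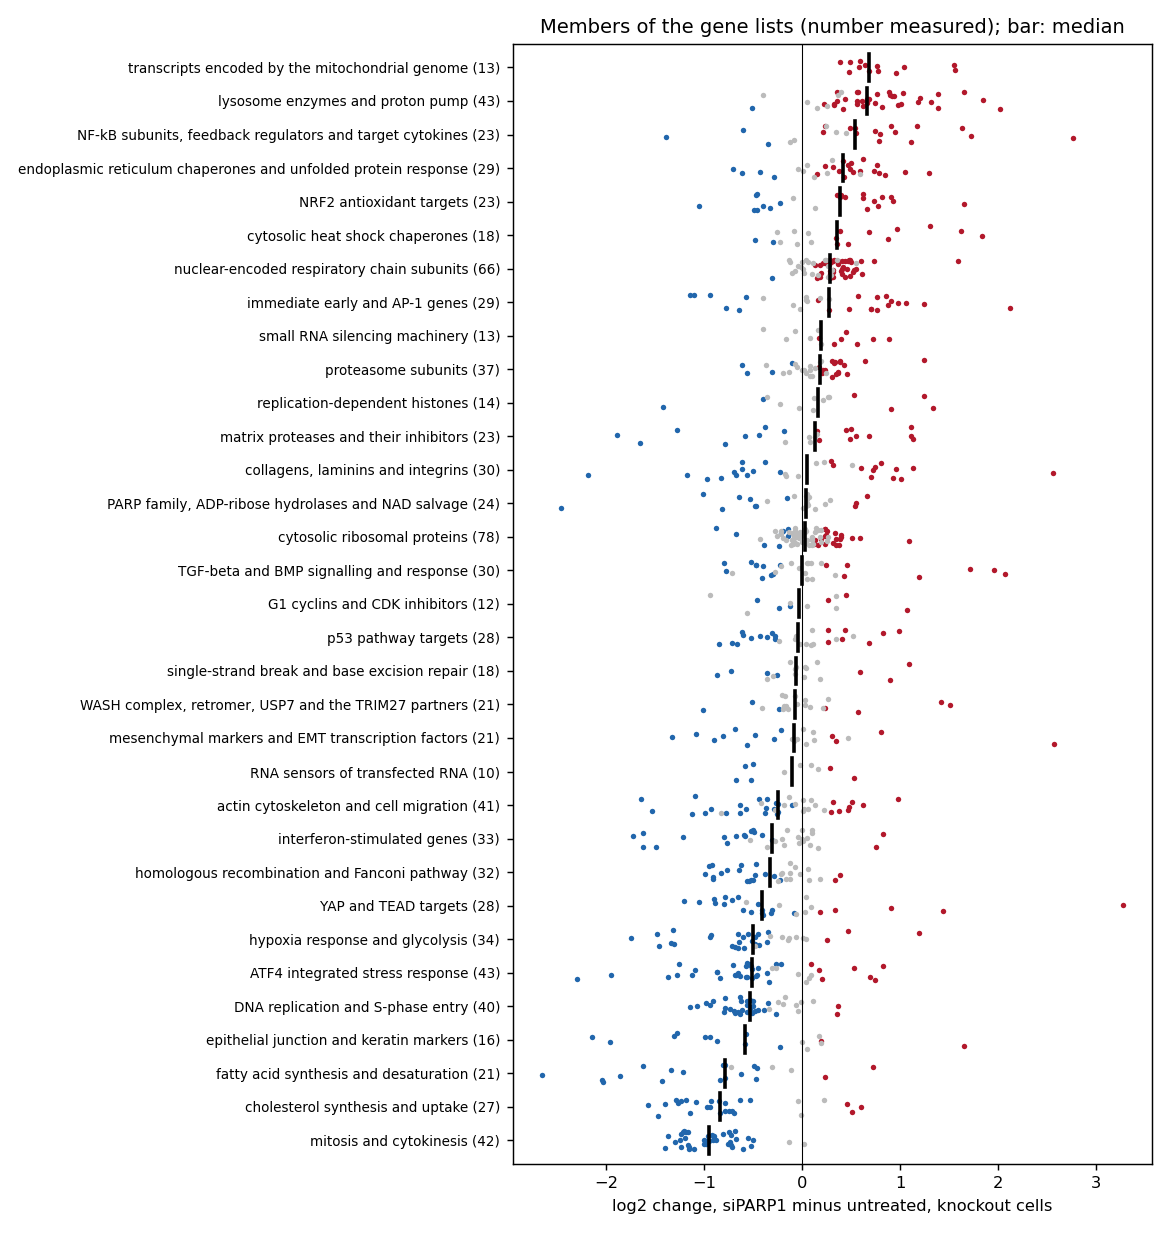
Each row is a gene list with at least 10 measured members and each dot a member, placed by its log2 change under siPARP1 in knockout cells (horizontal axis, siPARP1 minus untreated); the vertical bar on a row marks the list's median. The mitosis row lies almost wholly left of 0, around its median of -0.95, and the mitochondrial genome row wholly right of it, around 0.68.

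In the PARP family list 13 of 24 measured genes were not called, where 31.9% of all genes tested were called higher and 22.8% lower. Of the 24 measured genes for ADP-ribose transferases, their hydrolases and NAD salvage, 3 rose (TNKS2, PARP6 and ZC3HAV1) and 8 fell (PARP1, PARP2, PARP4, TNKS, PARP16, OARD1, MACROD1 and HPF1), with a median of 0.04 that turned to -0.04 when libraries were scaled by median of ratios. PARP2 and PARP4 are further ADP-ribose transferases, TNKS a tankyrase that acts at telomeres and on Wnt signalling, HPF1 the cofactor that directs PARP1 to serine, and MACROD1 and OARD1 hydrolases that take ADP-ribose off proteins. After PARP1 the deepest fall was in PARP16, a transferase of the endoplasmic reticulum membrane, which had a mean of 4.61 FPKM untreated and 1.80 FPKM under siPARP1 (log2 change -1.0, SE 0.0687, adjusted p = 1.62e-08). ZC3HAV1, the zinc finger antiviral protein, rose from a mean of 8.53 to 14.1 FPKM (log2 change 0.66, SE 0.0459, adjusted p = 1.83e-08). OARD1 did not keep its call when 1 of 4 libraries was left out in turn, with adjusted p up to 0.108.

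In single-strand break and base excision repair, the pathways that PARP1 serves most directly, 11 measured members were not called. Of 18 measured members 3 rose and 4 fell, with a median of -0.07. Among all genes tested 31.9% were called higher and 22.8% lower, and the share of the list that fell was near the latter. NEIL1, a glycosylase that removes oxidised bases, rose from a mean of 2.92 to 7.31 FPKM (log2 change 1.09, SE 0.206, adjusted p = 0.000418). TDP1, which frees DNA ends from trapped topoisomerase, fell from 20.9 to 12.3 FPKM (log2 change -0.73, adjusted p = 2.12e-06). LIG1, the ligase of replication, fell by 0.87 on the log2 scale from the gene values, but sums over its matched transcripts, which held 4.83 of its 19.3 FPKM, gave 0.50 with an adjusted p of 0.236. XRCC1, the scaffold that ADP-ribose chains recruit, was not called.

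Homologous recombination and Fanconi genes were lower more often. Of 32 measured members 18 fell and 2 rose (RAD51D and ATM), with a median of -0.33, and BRCA1, BRCA2 and PALB2 were not called. FANCD2, the protein whose ubiquitination marks crosslinks, was at 13, 13.1 and 13.4 FPKM in the untreated libraries and 7.31, 6.21 and 6.05 FPKM under siPARP1. The 3 treated libraries lay below all untreated ones (log2 change -0.92, SE 0.0764, adjusted p = 1.4e-07). EXO1, a nuclease that resects ends, changed by -0.95 and BARD1, the partner of BRCA1, by -0.91, both past the threshold. In wild-type cells 21 members of the list fell and 3 rose, with a median of -0.37, and none passed the test of a difference between genotypes.

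Genes of cell division fell together. Of the 42 measured genes of mitosis and cytokinesis 40 fell and 0 rose, with a median of -0.95; CDC25B and BUB3 were not called. Among all genes tested 22.8% were called lower. Wild-type cells also gave 40 and 0, with a median of -0.91. The summed level of the list was 2062 to 2083 FPKM in untreated knockout libraries and 1103 to 1128 FPKM under siPARP1. DLGAP5, a protein of the spindle microtubules, was at 57.3, 55.0 and 57.6 FPKM in the untreated libraries and 21.1, 20.04 and 21.4 FPKM under siPARP1 (log2 change -1.40, SE 0.0367, adjusted p = 7.52e-13). KIF2C and KIF20A, motor proteins of the centromere and of cytokinesis, fell from means of 46.8 to 17.5 FPKM and of 32.6 to 12.7 FPKM, by 1.37 and 1.30 on the log2 scale. TOP2A, the topoisomerase that untangles replicated chromosomes, and MKI67, the proliferation marker Ki-67, were named after their values were seen. TOP2A was at 160.4, 156 and 162 FPKM in the untreated libraries and 70.3, 69.6 and 71.7 FPKM under siPARP1 (log2 change -1.16, SE 0.0344, adjusted p = 2.46e-12). MKI67 was at 30.2, 44.8 and 31.4 FPKM in the untreated libraries and 14, 16.6 and 14.9 FPKM under siPARP1 (log2 change -1.16, SE 0.227, adjusted p = 0.000571). CKAP2, a spindle protein, fell by 1.24 on the log2 scale, with 1 siPARP1 library at 34.6 FPKM, well above the other two at 20.7 and 18.5 FPKM but below all untreated ones. For DLGAP5, TOP2A and MKI67 too every siPARP1 library lay below every untreated one.

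Many promoters of mitotic genes hold the cell cycle homology region, whose core letters are TTTGAA, and a CCAAT box. Of the 35 members of the mitosis list with a promoter in the RefSeq table for GRCh38.p14 (the 250 bases before and 50 after RefSeq's start of the gene), 23 (65.7%) held TTTGAA on either strand, against 15.4% of all 27305 promoters, and 28 (80%) held CCAAT, against 35.7%. CCAAT was counted on both strands as well, and matches of the 2 motifs may share a base. The windows below, of 80 bases out of the 250 before the start, come from a member with a large fall and from the most widely used proliferation marker. Capitals mark TTTGAA or its reverse complement.
DLGAP5, chr14:55191681-55191760, minus strand: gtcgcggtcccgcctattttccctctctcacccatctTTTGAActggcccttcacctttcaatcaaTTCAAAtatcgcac
MKI67, chr10:128126428-128126507, minus strand: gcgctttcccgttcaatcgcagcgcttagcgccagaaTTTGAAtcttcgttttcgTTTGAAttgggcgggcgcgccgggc
Each window holds 2 copies. A match is a description of the letters and not a measured binding site.

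Replication genes fell less deeply than mitotic genes. Of 40 measured members 30 fell and 2 rose (CCNE1 and CCNE2, the cyclins of S-phase entry), with a median of -0.53, and in wild-type cells 32 fell and 0 rose, with a median of -0.56. TK1, the thymidine kinase of S phase, was at 67.2, 67.5 and 73.6 FPKM in the untreated libraries and 31.6, 31.8 and 34.1 FPKM under siPARP1, with no overlap (log2 change -1.07, SE 0.0847, adjusted p = 7.82e-08). GINS4, a subunit of the replicative helicase, fell from a mean of 18.4 to 7.84 FPKM (log2 change -1.14, SE 0.0663, adjusted p = 2.86e-09). MCM2, another helicase subunit, fell from 23.8 to 12 FPKM and fell further than in wild-type cells (log2 change -0.93 against -0.57, interaction -0.37, SE 0.0919, adjusted p = 0.0337), though this difference did not pass in 12 of the alternatives, with adjusted p up to 0.0810. The E2F letters TTTCCCGC lay in 9 of the 33 promoters found (27.3%, against 1.66% of all promoters) and TTTGGCGC in 7 (21.2%, against 0.659%), counted on both strands.

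The regulators of G1 did not move as a group. Of 12 measured G1 cyclins, kinases and inhibitors 3 rose (CDK4, CDK6 and CDKN1B) and 3 fell (CCND1, CDKN2C and CDKN2D), and the median was -0.03. These counts are near the shares of all genes tested, 31.9% called higher and 22.8% lower. The interaction test called 4 of the 12 more positive in knockout cells and 0 more negative, against 2.74% and 2.52% of all genes tested. CDK4, the kinase that opens the path to S phase, rose from a mean of 60.3 to 128 FPKM (log2 change 1.07, SE 0.132, adjusted p = 7.78e-06), and CDKN1B, the inhibitor p27, rose by 0.45 on the log2 scale. CDKN1A, the inhibitor p21 and a main p53 target, was not called. Among 28 measured p53 targets 7 rose and 11 fell, to be read against the same shares of 31.9% and 22.8%, with a median of -0.04. PLK3, a stress-responsive kinase, rose from 7.49 to 15.9 FPKM (log2 change 0.99). PMAIP1, the cell death protein NOXA, was at 10.3, 11.1 and 12.9 FPKM in the untreated libraries and 5.76, 5.90 and 6.09 FPKM under siPARP1 (log2 change -0.85, SE 0.0691, adjusted p = 1.13e-07); in wild-type cells it changed by 0.29 in the other direction (interaction -1.14, SE 0.0978, adjusted p = 8.56e-06).

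Lipid synthesis was among the most reduced functions. Of 27 measured genes of cholesterol synthesis and uptake 21 fell and 3 rose (PMVK, an enzyme of the mevalonate pathway, SCAP, the sterol sensor, and NPC1, which exports cholesterol from lysosomes), with a median of -0.84. Of 21 measured genes of fatty acid synthesis and desaturation 16 fell and 2 rose (ELOVL1, which elongates very long chains, and GPAM, the first acyltransferase of triglyceride synthesis), with a median of -0.79. Both lists are known targets of the SREBP transcription factors. SCD, the desaturase that makes oleate (chr10:100347124-100364834), had, after MGARP, the deepest fall among protein-coding genes that averaged 5 FPKM or more in the higher group and did not overlap, measured on the scale of log2(FPKM + 1), where low genes move less. It was at 294, 288 and 292 FPKM in the untreated libraries and 45.4, 45.8 and 45.1 FPKM under siPARP1. The 6 values form 2 narrow clusters (6.41-fold lower in FPKM; log2 change -2.65, SE 0.0302, adjusted p = 8.9e-17). ACSS2, which makes acetyl-CoA from acetate, was at 44.9, 44.2 and 42.7 FPKM in the untreated libraries and 10.3, 10.1 and 9.47 FPKM under siPARP1 (log2 change -2.04, SE 0.0559, adjusted p = 1.19e-12). FASN, the fatty acid synthase and named after its values were seen, was at 108, 126 and 109 FPKM in the untreated libraries and 35.8, 37.4 and 35.8 FPKM under siPARP1 (log2 change -1.62). FADS1, the delta-5 desaturase, fell from a mean of 44.1 to 10.00 FPKM (log2 change -2.03).

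In the cholesterol list HMGCS1, which makes the precursor of mevalonate, was at 45.7, 43.6 and 42.6 FPKM in the untreated libraries and 14.9, 12.8 and 14.9 FPKM under siPARP1 (log2 change -1.57, SE 0.0670, adjusted p = 1.04e-10). ACAT2, which condenses acetyl-CoA at the head of the pathway, fell from 56.8 to 19.9 FPKM, and STARD4, a sterol carrier, changed by -1.29 on the log2 scale. The falls in SCD, ACSS2, HMGCS1 and ACAT2 were larger than in wild-type cells, with interactions of -0.41, -0.96, -0.42 and -0.50 (adjusted p = 4.14e-05, 5.74e-06, 0.0185 and 0.00104). Of each list 3 genes passed that test in this direction and 0 in the other, and the medians in wild-type cells were -0.68 and -0.58. The interaction of HMGCS1 did not pass in the fit of only the 12 libraries of the 4 groups (adjusted p = 0.0530, limma). The groups did not overlap for FASN or HMGCS1. Nor did they for SCD and ACSS2, where the rule for the largest falls required it. LPIN1, a phosphatidate phosphatase, fell from 36.0 to 9.22 FPKM, but not past the threshold when its matched transcripts were summed (-0.75, adjusted p = 0.236). The sterol regulatory element, searched as TCACNCCAC on both strands, lay in 1 of the 21 cholesterol promoters found and in 0 of the 20 fatty acid promoters, against 1.15% of all promoters.

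Genes of the lysosome rose almost throughout. Of 43 measured members for lysosomal enzymes, membrane proteins, the proton pump and autophagy receptors, 36 rose and 1 fell (CTSZ, a cathepsin), with a median of 0.67 against 31.9% called higher and a median of 0.07 among all genes tested. Wild-type cells gave 36 and 1 with a median of 0.71. SQSTM1, the autophagy receptor p62, was at 46.7, 43.0 and 44.3 FPKM in the untreated libraries and 181, 179 and 191 FPKM under siPARP1. It rose 4.11-fold (log2 change 2.02, SE 0.0560, adjusted p = 1.34e-12), and by 2.00 in wild-type cells, from 99.7 to 403 FPKM. ATP6V0B, a membrane subunit of the proton pump, was at 9.33, 12.3 and 10.8 FPKM in the untreated libraries and 40.8, 41.8 and 41.1 FPKM under siPARP1 (log2 change 1.84, SE 0.126, adjusted p = 1.56e-08). MCOLN1, a calcium channel of the lysosome membrane, was at 5.62, 6.98 and 6.14 FPKM in the untreated libraries and 21.2, 23.6 and 20.7 FPKM under siPARP1 (log2 change 1.66, SE 0.0877, adjusted p = 1.06e-09). ATP6V1G1, a subunit on the cytosolic side of the pump, was at 23.0, 23.8 and 21.9 FPKM in the untreated libraries and 60.9, 61.6 and 62.3 FPKM under siPARP1 (log2 change 1.39, SE 0.0466, adjusted p = 8.5e-12), and rose further in wild-type cells, by 1.69. The groups did not overlap for any of these 4 genes. Of the related transcription factors of lysosome genes, MITF rose from 2.25 to 4.17 FPKM (log2 change 0.67, SE 0.0935, adjusted p = 2.76e-05), and TFEB and TFE3 were not called.

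Promoters of lysosome genes are known for the CLEAR element, with the core TCACGTGA, which reads the same on both strands. It lay in 6 of the 28 promoters found for the list (21.4%, against 1.04% of all promoters), those of LAMP1, CTSA, GAA, MCOLN1, ATP6V0D1 and ATP6V1G1. All 6 genes rose, as did 23 of all 28 genes with a promoter found. A window of 80 bases from the 250 before the start is given for 2 of them with the core in capitals, as these members carry the largest rises among those with a match.
MCOLN1, chr19:7522544-7522623, plus strand: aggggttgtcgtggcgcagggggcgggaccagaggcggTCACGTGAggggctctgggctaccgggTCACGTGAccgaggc
ATP6V1G1, chr9:114587674-114587753, plus strand: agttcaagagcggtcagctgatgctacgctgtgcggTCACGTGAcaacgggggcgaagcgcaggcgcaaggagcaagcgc
The first window holds 2 copies and the second 1.

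Antioxidant genes that are targets of NRF2 moved both ways. Of 23 measured members 13 rose and 8 fell, with a median of 0.39. Among the 8 that fell were SLC7A11, which imports cystine, PGD and TKT of the pentose phosphate pathway, ME1, which makes NADPH from malate, AKR1B1, the exporter ABCC1 and PIR. TKT, the transketolase, fell from a mean of 276 to 132 FPKM (log2 change -1.05, SE 0.0914, adjusted p = 2.15e-07). OSGIN1, a stress-induced growth inhibitor, rose from 1.37 to 6.45 FPKM (log2 change 1.65, SE 0.0932, adjusted p = 2.06e-09), HMOX1, the haem oxygenase, from 20.1 to 39.3 FPKM (log2 change 0.93) and GCLC, which starts glutathione synthesis, from 4.78 to 10.1 FPKM (log2 change 0.91). NFE2L2, which encodes NRF2, was not called. No member had a more positive response than in wild-type cells and 5 had a more negative one.

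All 13 protein-coding transcripts of the mitochondrial genome rose, by 0.38 to 1.57 on the log2 scale and with a median of 0.68. Complex I subunits MT-ND2 and MT-ND1 rose most. MT-ND2 was at 2692, 2612 and 2739.5 FPKM in the untreated libraries and 7705, 7832 and 8307 FPKM under siPARP1 (log2 change 1.57, SE 0.0685, adjusted p = 1.34e-10). MT-ND1 was at 2031, 1968 and 2021 FPKM in the untreated libraries and 5827, 5848 and 5970.2 FPKM under siPARP1 (log2 change 1.55, SE 0.0466, adjusted p = 2.8e-12). The groups did not overlap for either. MT-CO1, the catalytic subunit of cytochrome oxidase, rose less in proportion, from 12767, 11732 and 12553 to 16857, 17183 and 17606 FPKM (log2 change 0.48). MT-RNR2, the large ribosomal RNA of mitochondria, went the other way, at 8077, 7561 and 7988 FPKM in the untreated libraries and 6704, 7665 and 6783 FPKM under siPARP1, with overlapping groups (log2 change -0.16, adjusted p = 0.0333), and lost its call in 6 of the alternatives. In wild-type cells 12 of the 13 transcripts rose with a median of 0.37. For 6 of the 13 the rise in knockout cells was larger by the interaction test, among them MT-ND2 (0.51, adjusted p = 0.00704) and MT-ND1 (0.38, adjusted p = 0.00332). Both of these calls were lost in the fit with no filter on low values (adjusted p = 0.0654 and 0.0697, limma). Those of MT-ATP8, MT-CO2 and MT-CO3 were lost in 10, 8 and 4 of the alternatives. The list's median was 0.66 after scaling to equal sums and 0.60 after median of ratios.

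Nuclear genes of the respiratory chain rose too, by less. Of 66 measured subunits 42 rose and 1 fell (SDHA, the flavoprotein of succinate dehydrogenase), with a median of 0.29, and wild-type cells gave 46 and 1 with a median of 0.36. NDUFS5, a complex I subunit, rose from a mean of 219.8 to 368 FPKM (log2 change 0.74, SE 0.0475, adjusted p = 8.5e-09), and UQCRQ of complex III by 0.62 on the log2 scale. NDUFA5 was uneven, at 21.8, 8.19 and 6.37 FPKM in the untreated libraries and 36.9, 33.1 and 31.9 FPKM under siPARP1, and the call was lost without some single libraries. Of 78 measured cytosolic ribosomal proteins 49 were not called, 21 rose and 8 fell. Both shares were below those of all genes tested, 31.9% called higher and 22.8% lower. The median of the list was 0.03 and became -0.05 under median-of-ratios scaling, where 12 rose and 13 fell. Of 37 proteasome genes 17 rose and 4 fell, with a median of 0.18.

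Genes of amino acid stress fell. Of 43 measured targets of ATF4, the transcription factor of the integrated stress response, 30 fell and 7 rose, with a median of -0.51. Those that rose were ATF5, PPP1R15A, CEBPB, GDF15, SLC3A2, SLC38A1 and WARS1, among them transcription factors, a phosphatase subunit that ends the response and amino acid transporters. DDIT4, an inhibitor of mTORC1 (chr10:72273920-72276036), was at 102, 100.0 and 100.0 FPKM in the untreated libraries and 21, 19.1 and 19.3 FPKM under siPARP1 (log2 change -2.29, SE 0.0550, adjusted p = 4.19e-13). ASNS, the asparagine synthetase, was at 94.0, 99.7 and 135 FPKM in the untreated libraries and 28.5, 18.3 and 38.4 FPKM under siPARP1, more variable but without overlap (log2 change -1.95, SE 0.212, adjusted p = 2.14e-06). CHAC1, which degrades glutathione, was at 14.1, 16.3 and 16.1 FPKM in the untreated libraries and 5.46, 5.55 and 5.15 FPKM under siPARP1 (log2 change -1.37, SE 0.173, adjusted p = 1.04e-05). In all 3 genes the siPARP1 libraries lay below the untreated ones, which for DDIT4 the rule for the largest falls required. SLC6A9, a glycine transporter, fell from 4.30 to 1.20 FPKM (log2 change -1.27). The falls in DDIT4 and CHAC1 were larger than in wild-type cells, where they changed by -1.45 and -0.17 (interaction -0.84, adjusted p = 1.61e-05, and -1.20, adjusted p = 0.011). Of the 43 members the interaction test called 8 more negative and 3 more positive.

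ATF4 binds composite elements of the form TGATGNAA, which lay on either strand in 11 of the 37 promoters found for this list (29.7%, against 3.67% of all promoters). Windows of 80 bases from the 250 before the start are shown for the 2 members with a match that fell most, with the match in capitals, read on the opposite strand in CHAC1.
ASNS, chr7:97872433-97872512, minus strand: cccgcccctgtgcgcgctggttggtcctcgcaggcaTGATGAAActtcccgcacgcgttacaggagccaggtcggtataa
CHAC1, chr15:40953226-40953305, plus strand: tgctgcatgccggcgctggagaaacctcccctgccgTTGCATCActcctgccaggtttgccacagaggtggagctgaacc
Of the 11 genes with a match 9 fell and 2 rose, and of all 37 genes with a promoter found 25 fell and 7 rose.

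Chaperones of the cytosol and of the endoplasmic reticulum rose, several of them more than in wild-type cells. Of 29 measured genes of the unfolded protein response 18 rose and 4 fell (CALR, PDIA4, SEC61B and CREB3L2), with a median of 0.41, against 8 and 7 with a median of 0.08 in wild-type cells. The interaction test called 10 of the 29 more positive in knockout cells and 0 more negative, where 2.74% and 2.52% of all genes tested were called. DNAJB9, a co-chaperone of BiP, was at 5.70, 7.08 and 6.43 FPKM in the untreated libraries and 16.7, 17.8 and 17.1 FPKM under siPARP1 (log2 change 1.30, SE 0.0798, adjusted p = 5.14e-09). In wild-type cells its mean went from 15.6 to 17.9 FPKM, so the untreated knockout was the lowest of the 4 groups (interaction 1.11, SE 0.113, adjusted p = 3.61e-05). SYVN1, the ubiquitin ligase of protein export from the endoplasmic reticulum, rose from 7.32 to 16.2 FPKM (log2 change 1.05), and DERL2, a channel protein of the same process, by 0.78. HYOU1, a chaperone of the lumen, rose from 11.6 to 21.7 FPKM, though with matched transcripts alone the adjusted p was 0.137.

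Of 18 measured heat shock chaperones 10 rose and 2 fell (DNAJB4 and BAG3), with a median of 0.36, and the interaction called 5 more positive in knockout cells and 0 more negative. HSPA8, the constitutive HSC70 (chr11:123057489-123063230), was at 297, 318 and 314 FPKM in the untreated libraries and 1185, 1168 and 987 FPKM under siPARP1 (log2 change 1.84, SE 0.141, adjusted p = 5.77e-08). In wild-type cells it went from 709 ± 104 to 900.2 ± 242 FPKM (SD, n = 3), which did not pass (interaction 1.52, SE 0.200, adjusted p = 0.000401). HSPA1A, the inducible HSP70, was at 0.859, 0.952 and 0.926 FPKM in the untreated libraries and 4.84, 5.18 and 4.69 FPKM under siPARP1 (log2 change 1.63, SE 0.0520, adjusted p = 5.26e-12). Its near copy HSPA1B rose from 1.05 to 4.08 FPKM; reads of the 2 genes can be hard to tell apart, so the split between them is uncertain. HSPA8 was higher in every siPARP1 library than in any untreated one. So was HSPA1A, but as a member only through the siPARP1 libraries it could not be otherwise. DNAJA1, an HSP40 partner, rose from 46.7 to 92.7 FPKM (log2 change 0.97). The heat shock element, searched on both strands as GAA, TTC and GAA with 2 bases of any kind in each gap, lay in 4 of the 17 promoters found (23.5%, against 0.487% of all). Of those 4 genes 3 rose, and of all 17 genes with a promoter found 10 rose. HSPA8, with the largest rise of the list, holds 2 matches, and the one farther from the start is in capitals in the 80-base window given, which lies before RefSeq's start but within the GENCODE 29 span of the gene given above.
HSPA8, chr11:123062307-123062386, minus strand: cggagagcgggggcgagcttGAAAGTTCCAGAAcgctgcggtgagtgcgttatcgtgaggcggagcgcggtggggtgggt

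Genes of hypoxia and glycolysis fell, several of them by more than in wild-type cells. Of 34 measured members 23 fell and 3 rose (SLC2A3, PFKM and ANGPTL4), with a median of -0.49. In wild-type cells 15 fell and 4 rose, with a median of -0.19, and the interaction called 11 members more negative in knockout cells and 0 more positive. BNIP3, a receptor for mitophagy (chr10:131966455-131982013), was at 95.6, 95.3 and 95.1 FPKM in the untreated libraries and 27.7, 28.5 and 27.3 FPKM under siPARP1 (log2 change -1.74, SE 0.0368, adjusted p = 1.28e-13). Its relative BNIP3L fell from 96.9 to 34.2 FPKM (log2 change -1.47). LDHA, the lactate dehydrogenase of glycolysis, was at 445, 431 and 449.8 FPKM in the untreated libraries and 165, 174 and 184 FPKM under siPARP1 (log2 change -1.34, SE 0.0534, adjusted p = 5.25e-11), and PFKFB4, which sets the glycolytic rate, fell from 11.4 to 3.53 FPKM (log2 change -1.46). GAPDH, often used as a reference gene, was at 2406, 2583 and 2466 FPKM in the untreated libraries and 1716, 1733 and 1775 FPKM under siPARP1 (log2 change -0.51, SE 0.0404, adjusted p = 7.7e-08). The groups did not overlap for BNIP3, LDHA or GAPDH. The interactions were -0.69 for BNIP3, -0.82 for PFKFB4, -0.36 for LDHA and -0.40 for GAPDH (adjusted p = 2.44e-06, 0.002, 0.0116 and 0.000773). The core of the hypoxia response element, ACGTGC, which shares the letters ACGTG with the CLEAR core, lay on either strand in 7 of the 29 promoters found (24.1%, against 6.87% of all). BNIP3, the member with the deepest fall, holds it on both strands in overlapping positions, given in capitals in 80 of the 250 bases before the start.
BNIP3, chr10:131982016-131982095, minus strand: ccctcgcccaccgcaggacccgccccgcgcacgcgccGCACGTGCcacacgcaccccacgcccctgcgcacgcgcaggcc

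Chemokines of the NF-kB list rose from low levels. Of 23 measured NF-kB subunits, regulators and target cytokines 15 rose and 3 fell (TNFAIP2, TNIP1 and IL1A), with a median of 0.54, against 11 and 4 with a median of 0.20 in wild-type cells. CXCL8, a chemokine that attracts neutrophils (chr4:73740506-73743716), was at 1.17, 1.25 and 1.64 FPKM in the untreated libraries and 14.7, 14.3 and 15.9 FPKM under siPARP1. It rose 11.1-fold (log2 change 2.77, SE 0.0699, adjusted p = 5.73e-13) but stayed below the wild-type level, which went from 23.0 to 64.2 FPKM (interaction 1.33, SE 0.0988, adjusted p = 2.35e-06). CXCL1 was at 6.86, 6.66 and 6.99 FPKM in the untreated libraries and 23.7, 23.0 and 23.0 FPKM under siPARP1 (log2 change 1.63, SE 0.0418, adjusted p = 6.35e-13), with 43.4 and 49.8 FPKM in wild-type cells (interaction 1.43, SE 0.0591, adjusted p = 5.73e-09). CXCL2 was at 3.33, 2.61 and 3.24 FPKM in the untreated libraries and 13.1, 13.1 and 11.1 FPKM under siPARP1 (log2 change 1.72, SE 0.0762, adjusted p = 1.49e-10). For these 3 related chemokines the untreated knockout was the lowest of the 4 groups, with no overlap with the siPARP1 libraries. For CXCL8 the rule for the largest rises required that lack of overlap. TNFAIP2, a TNF-induced protein, fell from 18.1 to 6.31 FPKM (log2 change -1.39).

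Among 29 measured immediate early genes 15 rose and 6 fell, with a median of 0.28. FOS, a subunit of AP-1, was at 1.36, 1.08 and 1.55 FPKM in the untreated libraries and 9.65, 8.69 and 9.09 FPKM under siPARP1 (log2 change 2.13, SE 0.0836, adjusted p = 4.5e-11), and EGR1, a zinc finger factor of the same early wave, rose from 3.51 to 9.67 FPKM (log2 change 1.24). FOSL2, another AP-1 subunit, fell from 57.4 to 25.5 FPKM (log2 change -1.14, adjusted p = 0.0126). ATF3 varied between untreated libraries, at 6.71, 20.03 and 11.1 FPKM in the untreated libraries and 6.42, 2.85 and 5.92 FPKM under siPARP1, and its call was lost in 6 of the alternatives.

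Among interferon-stimulated genes more fell than rose in knockout cells. Of 33 measured 15 fell and 2 rose (ISG15 and STAT2), with a median of -0.30, whereas in wild-type cells 7 fell and 9 rose, with a median of 0.10. The interaction called 8 members more negative in knockout cells and 0 more positive. IFIT1, an RNA-binding antiviral protein (chr10:89392546-89406486), was at 10.4, 10.3 and 9.75 FPKM in the untreated libraries and 2.29, 2.21 and 2.59 FPKM under siPARP1 (log2 change -1.73, SE 0.0510, adjusted p = 2.46e-12). In wild-type cells it was at 6.07 ± 0.301 and 6.63 ± 0.158 FPKM (SD, n = 3), which did not pass (interaction -1.84, SE 0.0722, adjusted p = 5.68e-09). IFIT3, its partner, was at 13.9, 14.3 and 14.1 FPKM in the untreated libraries and 3.83, 4.03 and 3.85 FPKM under siPARP1 (log2 change -1.62, SE 0.0522, adjusted p = 5.55e-12), with 13.1 and 10.3 FPKM in wild-type cells (interaction -1.31, SE 0.0739, adjusted p = 1.41e-07). The siPARP1 libraries lay below the untreated ones for both. IRF1, a transcription factor of the response, fell from 9.63 to 2.77 FPKM (log2 change -1.48), and its interaction of -0.39 did not pass. IFIT2 had 1 low untreated library, at 3.38, 17.9 and 17.1 FPKM in the untreated libraries and 2.84, 2.80 and 2.50 FPKM under siPARP1, and its adjusted p of 0.0395 rose to as much as 0.196 in 9 of the alternatives.

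The interferon response element, searched as a pair of GAAA runs with 2 bases of any kind between them, on both strands, lay in 20 of the 28 promoters found for this list (71.4%, against 3.65% of all). The 2 members with the deepest falls that held in every alternative are shown, with 80 of the 250 bases before the start and the matches, here on the opposite strand, in capitals. The last bases of the IFIT1 window lie within the gene's GENCODE 29 span.
IFIT1, chr10:89392472-89392551, plus strand: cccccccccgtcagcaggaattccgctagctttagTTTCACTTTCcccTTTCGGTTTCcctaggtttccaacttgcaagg
IFIT3, chr10:89327806-89327885, plus strand: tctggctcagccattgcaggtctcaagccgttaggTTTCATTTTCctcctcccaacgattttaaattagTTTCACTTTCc
Each window holds 2 matches. Of the 13 genes with a promoter that fell 10 held the element, and of the other 15 in the list that were found, 10 held it too.

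Receptors that sense foreign RNA did not rise together. Of 10 measured sensors and their adaptors 2 rose and 4 fell, with a median of -0.10, against a median of 0.23 in wild-type cells. Of these genes RIGI, IFIH1, EIF2AK2, OAS1 and OAS3 are also in the interferon list. EIF2AK2, the kinase PKR that double-stranded RNA activates, fell from 17 to 10.2 FPKM by gene values (log2 change -0.67), but its matched transcripts gave -0.08 with an adjusted p of 0.932. OAS1, which makes the second messenger of RNase L, fell from 1.19 to 0.484 FPKM (log2 change -0.58). TBK1, the kinase below the sensors, rose from 20.4 to 29.99 FPKM (log2 change 0.53). Of the 13 genes of small RNA silencing 7 rose and 0 fell, with a median of 0.19. TARBP2, a partner of Dicer, rose from 8.24 to 16.1 FPKM (log2 change 0.89, SE 0.0825, adjusted p = 4.31e-07), AGO2, the Argonaute that cleaves RNA, by 0.73, DGCR8 by 0.57 and DICER1 by 0.45.

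Matrix, adhesion and cytoskeleton genes held some of the largest single changes without a common direction. ANKRD1, a stretch-responsive nuclear protein and target of YAP (chr10:90912096-90921276), was at 61.9, 62.0 and 62.8 FPKM in the untreated libraries and 623, 608 and 609 FPKM under siPARP1, a 9.85-fold rise (log2 change 3.28, SE 0.0337, adjusted p = 4.36e-17). CCN2, the connective tissue growth factor, rose from 70.3 to 192 FPKM (log2 change 1.44). The YAP list as a whole went down, with 17 of 28 measured members lower, 5 higher (TEAD3, CCN2, ANKRD1, NT5E and ARHGEF17) and a median of -0.40. MYOF, a membrane repair protein, and AJUBA, a LIM protein, were among those lower, by 1.20 and 1.05 on the log2 scale.

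TAGLN, an actin-binding protein of smooth muscle, was at 2.17, 2.2 and 2.49 FPKM in the untreated libraries and 19.9, 18.9 and 17.1 FPKM under siPARP1 (log2 change 2.58, SE 0.107, adjusted p = 8.02e-11), and rose by 1.44 in wild-type cells (interaction 1.14, SE 0.151, adjusted p = 0.00043). Other actin genes fell more often than they rose, with 20 of 41 measured lower, 8 higher and a median of -0.25. CAV1, the coat protein of caveolae, was at 631, 609 and 607 FPKM in the untreated libraries and 195, 200.4 and 192 FPKM under siPARP1 (log2 change -1.65, SE 0.0572, adjusted p = 1.22e-11), CAVIN1, its partner, fell from 481 to 166 FPKM and MYH9, a non-muscle myosin, from 316 to 145 FPKM (log2 changes -1.53 and -1.12). MYLK, the myosin light chain kinase, fell from 75.4 to 13.4 FPKM by gene values, but the matched transcripts held only 3.42 of its 75.4 FPKM and gave -0.01 (adjusted p = 0.996).

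Of 30 measured collagens, laminins and integrins 12 rose and 12 fell, with a median of 0.05 that turned to -0.03 under median-of-ratios scaling. COL6A3, a chain of the collagen VI network, was at 4.06, 3.62 and 3.93 FPKM in the untreated libraries and 29.2, 31.0 and 23.7 FPKM under siPARP1 (log2 change 2.56, SE 0.136, adjusted p = 1.11e-09). ITGB4, the integrin of hemidesmosomes, was at 27.6, 28.3 and 24.0 FPKM in the untreated libraries and 5.19, 5.56 and 4.53 FPKM under siPARP1 (log2 change -2.18, SE 0.0961, adjusted p = 1.45e-10), and its partner ITGA6 changed by -1.17. Neither COL6A3 nor ITGB4 had overlapping groups, which the rule for the largest changes required. LAMB2, a laminin chain, rose from 46.5 to 103 FPKM (log2 change 1.13). Among 23 matrix proteases and inhibitors 10 rose and 8 fell. MMP24, a membrane-bound protease, fell from 23.4 to 5.59 FPKM, PLAT, the tissue plasminogen activator, from 307 to 97.8 FPKM and MMP2, a gelatinase, from 7.02 to 2.31 FPKM (log2 changes -1.89, -1.65 and -1.28). SERPINB8, a protease inhibitor, rose from 1.86 to 5.09 FPKM (log2 change 1.13).

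Of 30 measured TGF-beta and BMP genes 7 rose (TGFBR2, ID1, ID2, ID3, INHBA, FST and PMEPA1) and 10 fell, with a median of 0.00. Among all genes tested 31.9% were called higher, a larger share than in this list, and 22.8% lower. The ID genes, inhibitors of basic helix-loop-helix factors and direct BMP targets, rose together. ID2 was at 3.42, 3.28 and 3.24 FPKM in the untreated libraries and 16.8, 19.2 and 15.5 FPKM under siPARP1 (log2 change 2.07, SE 0.0664, adjusted p = 5.41e-12). Its groups did not overlap. ID3 rose from 1.46 to 8.46 FPKM and ID1 from 6.85 to 17 FPKM (log2 changes 1.96 and 1.19). FST, which binds activin, rose from 3.15 to 12.5 FPKM (log2 change 1.71).

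Keratins fell while the mesenchymal list moved both ways. Of 16 measured epithelial genes 10 fell and 2 rose (CLDN1 and JUP), with a median of -0.58, and in wild-type cells 11 fell and 2 rose, with a median of -0.66. KRT8, a keratin of simple epithelia, was at 1015, 1232 and 1197 FPKM in the untreated libraries and 284, 303 and 292 FPKM under siPARP1 (log2 change -1.96, SE 0.185, adjusted p = 5.07e-07), and its partner KRT18 fell from 1229 to 498 FPKM (log2 change -1.30). ELF3, an epithelial transcription factor, was at 6.87, 7.09 and 5.62 FPKM in the untreated libraries and 0.913, 0.490 and 0.709 FPKM under siPARP1 (log2 change -2.15, SE 0.129, adjusted p = 4.07e-09). CLDN1, a tight junction protein, rose, at 9.09, 8.87 and 9.17 FPKM in the untreated libraries and 31.4, 29.8 and 30.6 FPKM under siPARP1 (log2 change 1.65, SE 0.0456, adjusted p = 1.28e-12). The groups did not overlap for KRT8 or CLDN1. Nor did they for ELF3, a member only through the untreated libraries, where the rule for the largest falls required it. Of 21 measured mesenchymal genes 4 rose (FN1, TGFBI, LOX and TAGLN) and 9 fell (VIM, TWIST1, S100A4, COL1A1, COL3A1, COL5A1, LOXL2, AXL and FBN1), with a median of -0.08. S100A4, a calcium-binding protein of motile cells, fell from 2.60 to 0.441 FPKM, and AXL, a receptor kinase, from 138 to 73.8 FPKM (log2 changes -1.32 and -0.90). The epithelial regulators GRHL2, OVOL1 and ST14 were listed at 0 in all 6 libraries, and the summed epithelial level of 2683 to 2939 FPKM without treatment and 1055 to 1073 FPKM under siPARP1 was mostly that of the 2 keratins.

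**Figure D3:**
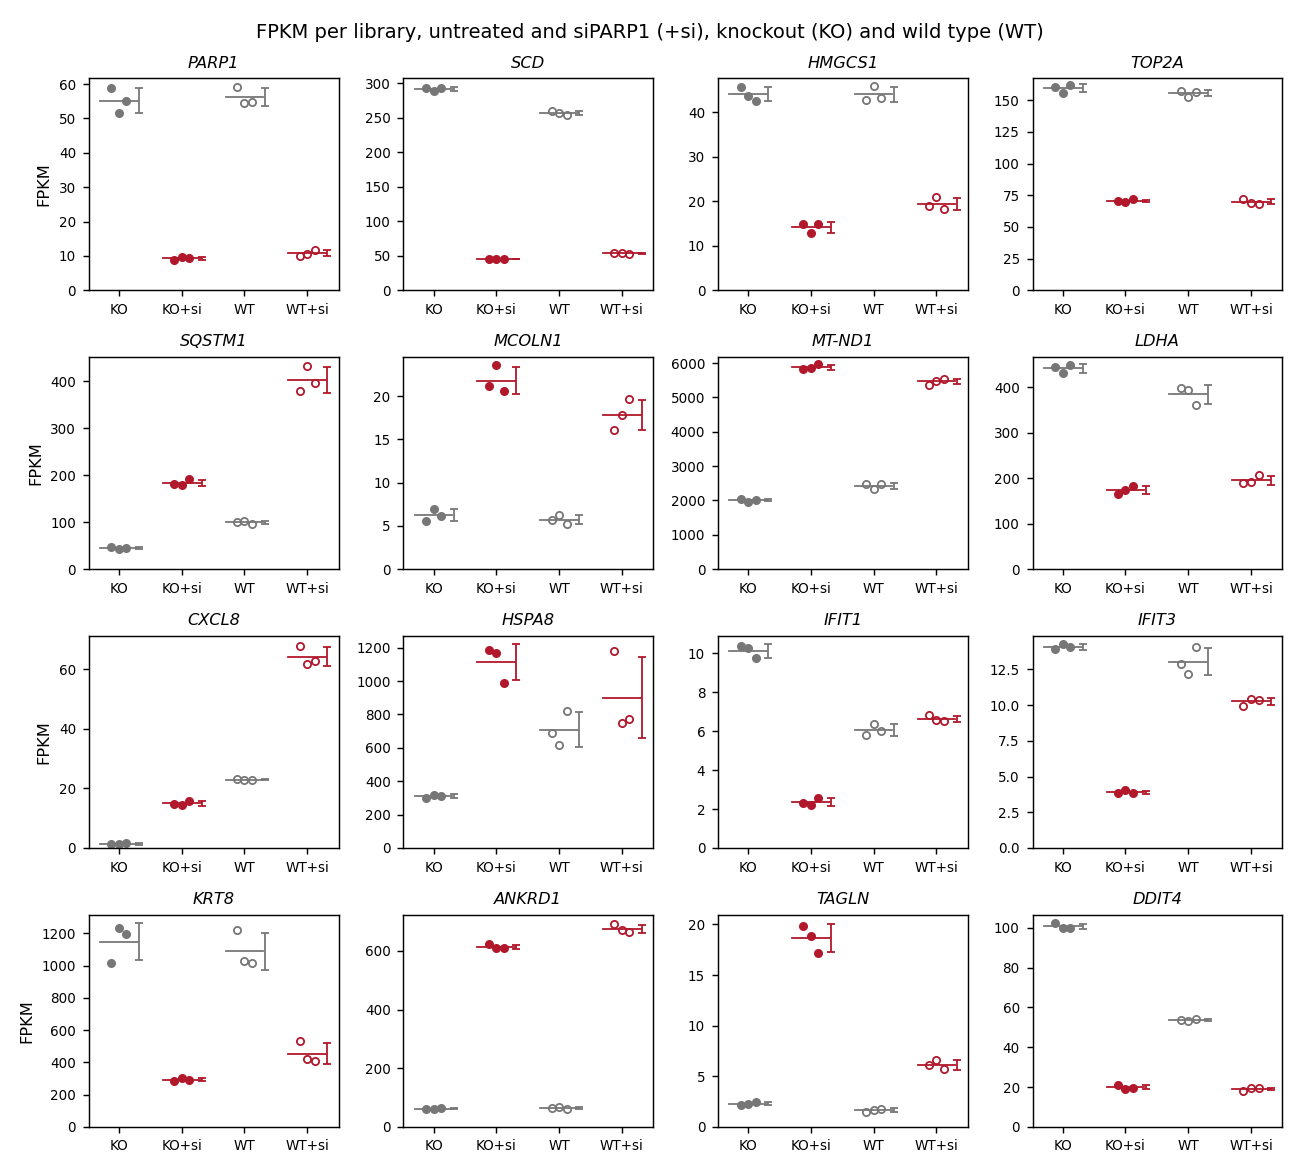
FPKM of 16 genes in the 3 libraries of each of 4 groups (knockout untreated, knockout siPARP1, wild-type untreated, wild-type siPARP1); each dot is a library, the line the mean and the bar the SD. PARP1, SCD and DDIT4 drop and SQSTM1 and ANKRD1 climb in both genotypes, whereas HSPA8 and CXCL8 start lower in untreated knockout than in untreated wild-type cells and IFIT1 drops in knockout cells, with a change in wild-type cells that did not pass.

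Beyond the lists, the members with the largest changes were a mixed set. PDE7B-AS1, a long RNA antisense to PDE7B, was at 0.248, 0.445 and 0.639 FPKM in the untreated libraries and 27.1, 25.5 and 26.3 FPKM under siPARP1 (log2 change 4.25, SE 0.106, adjusted p = 5.52e-13), and changed by 3.70 in wild-type cells. The sources used here do not say whether the counting used strand, so reads of an antisense gene and its partner cannot be told apart. SPOCD1, a protein of the piRNA pathway, rose from 3.00 to 18.3 FPKM (log2 change 2.26) and LINC00518, a long non-coding RNA, from 0.832 to 9.45 FPKM (log2 change 2.51). MGARP, a mitochondrial protein of steroid-forming cells, was at 13.1, 14.1 and 14.6 FPKM in the untreated libraries and 1.02, 1.20 and 1.11 FPKM under siPARP1 (log2 change -2.82, SE 0.0722, adjusted p = 6.21e-13). PADI2, which turns arginine into citrulline, was at 14.2, 15.5 and 16.1 FPKM in the untreated libraries and 1.71, 1.85 and 1.75 FPKM under siPARP1 (log2 change -2.56, SE 0.123, adjusted p = 3.9e-10). DENND2A, a regulator of RAB GTPases, fell from 8.18 to 0.567 FPKM (log2 change -2.55). A lack of overlap between the groups was a condition of the rule that named these 6 genes. PDE7B-AS1 and LINC00518 were members only through the siPARP1 libraries, and DENND2A only through the untreated ones. Among called members with a gene name the loss in absolute FPKM was largest in ANXA2, an annexin of the plasma membrane, which fell from 2170.2 to 1128 FPKM (log2 change -0.94).

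The share of members called differed between gene types, which was not tested. Of the 11256 protein-coding members 3825 rose and 2871 fell. Of 80 small nucleolar RNAs 49 rose and 2 fell, with a median of 0.87, and all 22 mitochondrial transfer RNAs rose, with a median of 1.49. MT-TV rose from a mean of 25.3 to 143 FPKM, MT-TT from 64.3 to 305 FPKM and MT-TD from 11.5 to 55.2 FPKM. All 8 members annotated as rRNA rose, with a median of 1.78. How far the oligo(dT) selection bears on the values of these 3 types was not tested. Reads of a short gene can also be hard to tell apart from those of a longer gene that spans it. SNORD14C and SNORD14D, both among the largest rises, lie within HSPA8, which rose as well. Of 415 antisense RNAs 162 rose and 55 fell, of 324 long intergenic RNAs 105 rose and 61 fell, and of 732 processed pseudogenes 125 rose and 153 fell. The 959 unnamed loci moved evenly, with 211 higher and 208 lower. Several of the single largest changes in this class rested on uneven libraries. SNORD58B was at 67.7, 73.4 and 82.1 FPKM in the untreated libraries and 5.73, 0.193 and 0.185 FPKM under siPARP1, and RN7SL1, the RNA of the signal recognition particle, at 43.7, 42.8 and 40.2 FPKM in the untreated libraries and 146, 359 and 132 FPKM under siPARP1.

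**Figure D4:**
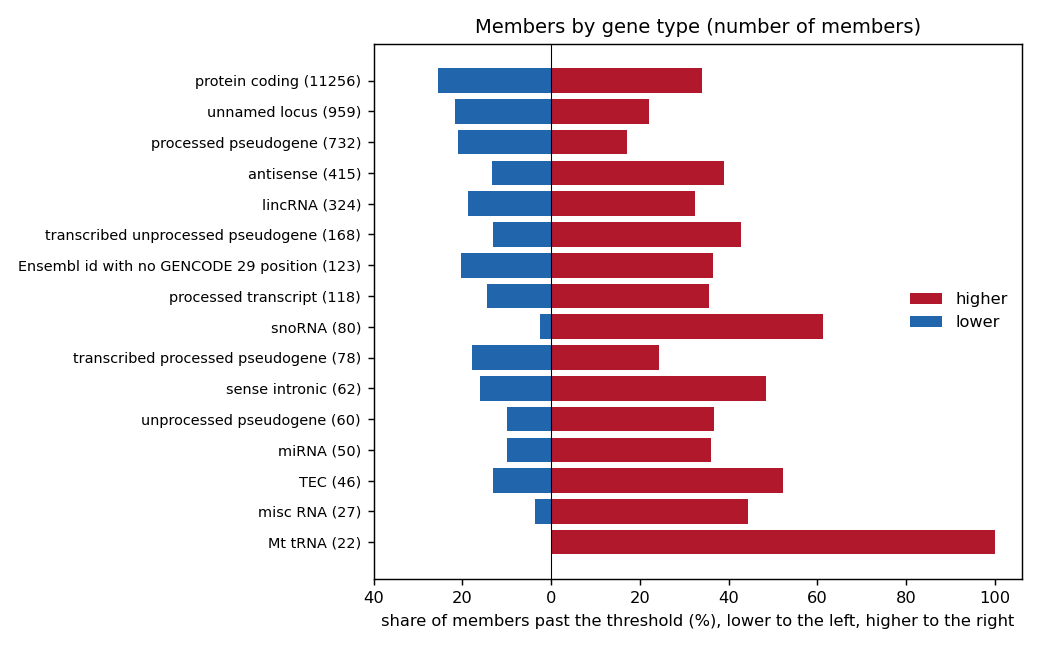
Bars give, for each gene type with the number of members in brackets, the percentage of members called higher (red, to the right of 0) and called lower (blue, to the left) under siPARP1 in knockout cells. The 22 mitochondrial transfer RNAs reach 100% higher and small nucleolar RNAs 61.3%, against 34.0% of protein-coding genes.

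Histone genes behaved differently in the 2 genotypes. Of 14 measured members of the histone list 4 rose (H2AC18, H2AC19, H2BC12 and H2BC21) and 2 fell, H2BC4 among them, with a median of 0.17, whereas 12 rose and 1 fell in wild-type cells, with a median of 0.67. The interaction called 9 members more negative in knockout cells and 0 more positive. H2AC18 rose from 3.16 to 9.54 FPKM (log2 change 1.34, SE 0.0860, adjusted p = 8.23e-09), and less than in wild-type cells (interaction -0.49, adjusted p = 0.0317, lost in 12 of the alternatives); H2AC19 is a near-identical copy, so the split between the 2 is uncertain. Transcripts of replication-dependent histones have no poly(A) tail, which limits what oligo(dT) libraries hold of them.

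Genes of the WASH complex and retromer, with which TRIM27 is known to act through MAGEL2 and USP7, were mostly not called. Of 21 measured 4 rose and 3 fell, with a median of -0.07. WASHC2A and WASHC2C, near-identical copies of the FAM21 subunit whose reads can be hard to separate, rose from 25.4 to 74.1 FPKM and from 21.2 to 58.2 FPKM (log2 changes 1.51 and 1.41). MAGED2, of the MAGE family, fell from 54.1 to 26.4 FPKM (log2 change -1.01). The interaction test called 0 of the 21.

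Most of the knockout response was also seen in wild-type cells, which share no library with it. Of the 4815 members that rose in knockout cells 3592 rose in wild-type cells as well, which is 74.6% of the knockout calls and 81.2% of the 4426 wild-type ones. Of the 3466 that fell, 2703 fell in wild-type cells, 78.0% of the knockout calls and 80.02% of the 3378 wild-type ones. Only 26 members rose in knockout and fell in wild-type cells, and 26 did the reverse. Across the 14606 members the 2 sets of log2 changes correlated at a Pearson r of 0.825, as a description, since genes are not independent replicates.

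The interaction test called 423 members more positive and 364 more negative in knockout than in wild-type cells, against 2.74% and 2.52% of all genes tested. Of the 423, 309 were called higher in knockout cells, and of the 364, 257 were called lower. Only 243 and 229 passed when the fit was restricted to the 12 libraries of these 4 groups. At the more positive end, of genes that reached a group mean of 5 FPKM, stood MIR137, SLC33A1, HSPA8, CXCL1, CXCL8 and FOS, and at the more negative end SERPINB2, RPE, SNHG26, IFIT1 and C15orf48. SERPINB2, the inhibitor of plasminogen activators, had the most negative interaction of these. It is a member only through the siPARP1 libraries, so its knockout groups could not overlap. It was at 0.239, 0.117 and 0.0909 FPKM in the untreated libraries and 1.14, 1.85 and 1.48 FPKM under siPARP1 in knockout cells and rose from 11.8 to 161 FPKM in wild-type cells (interaction -2.52, SE 0.262, adjusted p = 4.46e-05), but with a pseudocount of 0.1 in place of 1 the interaction was -1.03 with an adjusted p of 0.218. C15orf48, a mitochondrial protein induced by inflammation, rose from 0.884 to 1.93 FPKM in knockout and from 2.50 to 15.4 FPKM in wild-type cells (interaction -1.58, SE 0.143, adjusted p = 1.33e-05).

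RPE, an enzyme of the pentose phosphate pathway, was at 35.4, 50.3 and 46.0 FPKM in the untreated libraries and 13.2, 9.40 and 10.5 FPKM under siPARP1 (log2 change -1.90, SE 0.201, adjusted p = 1.66e-06; interaction -2.07, adjusted p = 0.000575). MIR137, listed as the gene of a microRNA, was at 0.108, 0.124 and 0.108 FPKM in the untreated libraries and 5.72, 7.23 and 6.61 FPKM under siPARP1 (log2 change 2.75, SE 0.333, adjusted p = 6.46e-06), and its interaction of 2.10 passed in the fit of 18 libraries but not with 12 or with a pseudocount of 0.1, with adjusted p up to 0.0755. The interactions of SLC33A1, an acetyl-CoA transporter, and of SNHG26, a host of small nucleolar RNAs, at 1.65 and -1.98, were each lost in 12 of the alternatives.

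**Figure D5:**
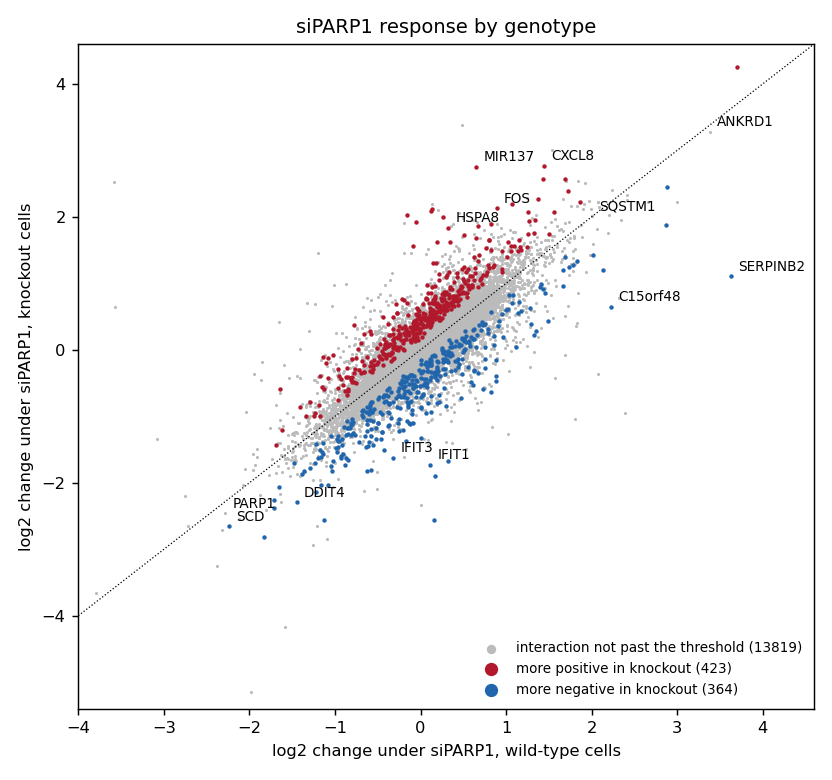
Each point is a member, with its log2 change under siPARP1 in wild-type cells on the horizontal axis and in knockout cells on the vertical axis; the dotted line marks equal change. Red points are the 423 members with a more positive and blue points the 364 with a more negative response in knockout cells by the interaction test; CXCL8 and HSPA8 lie above the line, IFIT1 and SERPINB2 below it, and SQSTM1, ANKRD1 and PARP1 close to it.

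Olaparib, which blocks the enzyme, gives a second set of values in knockout cells, and it shares the 3 untreated libraries with siPARP1, so the 2 comparisons are not independent and no agreement between them was computed. Agent and time differ as well. The values are set side by side for the genes above, as the untreated, siPARP1 and olaparib means. PARP1 was at 55.2, 9.25 and 40.1 FPKM. SCD was at 291, 45.4 and 55.7 FPKM, and DDIT4 at 101, 19.8 and 8.68 FPKM. Both genes were lower under either agent. ANKRD1 was at 62.2, 613 and 184 FPKM, CXCL8 at 1.35, 15 and 5.30 FPKM and FOS at 1.33, 9.15 and 57.4 FPKM. IFIT1 was at 10.1, 2.36 and 21.9 FPKM, lower than untreated with the siRNA and higher with the inhibitor. TAGLN, at 2.29, 18.6 and 2.64 FPKM, and MGARP, at 13.9, 1.11 and 15.8 FPKM, differed less from the untreated mean under olaparib than under siPARP1.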

How the data were processed

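RNA sequencing of 18 libraries, 6 groups of 3, was used. The authors deposited FPKM values per gene and per transcript. Per the submitters' processing notes the tools were DESeq2 1.38.3, StringTie 2.2.1, featureCounts 2.0.3, HISAT2 2.2.1 and fastp 0.23.2, and the build GRCh38; the tool behind the FPKM values, its annotation and its strand setting are not given in the sources used here. Read counts were not used here, so depth is unknown, and no counting interval is given. Groups were taken from the sample labels. Gene symbols were matched for 61757 identifiers and GENCODE 29 positions for 58308, and 970 listed loci have no gene name.

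The 15764 genes that reached 1 FPKM in 3 or more of the 18 libraries were tested on the scale of log2(FPKM + 1), using limma 3.58.1 (R 4.3.3). A single model held the 6 groups, so that they share an estimate of the spread, and its prior followed the mean level (12 residual and 2.06 prior degrees of freedom). The contrasts were siPARP1 against untreated in knockout and in wild-type cells, their difference (the interaction), and olaparib against untreated in knockout cells. P-values were adjusted over all tested genes by Benjamini-Hochberg, and a gene is called, or said to rise or fall, where the adjusted p is under 0.05. A pseudocount of 1 makes the log2 changes of low genes smaller than the true ones. Log2 changes are given with standard errors (SE), and FPKM means with standard deviations (SD) over 3 libraries. The script was tested on simulated data.

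Lists are described by counts and medians beside the share called among all tested genes; 951 of the 1134 genes in the 37 lists are members. Named by rule were PARP1, TRIM27 and PAX6, the 15 largest rises and falls (symbol, at least 5 FPKM on average in the higher group, a call, no overlap), the 4 called genes of each list with the largest change, the 6 strongest interactions each way, and the 5 largest gains and losses in FPKM, 166 genes in all. Lack of overlap is therefore no further result for the largest rises and falls. TOP2A, MKI67, FASN and MITF, and list members given without values, were named after their values were seen. A few genes are not reported here. The members and lists were chosen with earlier results of these data known.

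Alternatives were a pseudocount of 0.1, no filter, fits over the members, over the 6 libraries and over the 12 libraries of 4 groups, scaling to equal sums, to annotated nuclear genes and by median of ratios, a replicate block, leaving out each library, and, added after seeing the data, sums over the transcripts that match a gene. Promoters (250 bases before to 50 after the start) come from RefSeq on GRCh38.p14. Figures were drawn with matplotlib 3.10.9, and tables were handled with pandas 2.3.3 and numpy 2.4.6.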

Additional observations from a re-analysis of the deposited data

Results flagged for a closer look

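The response to siPARP1 differed between the genotypes, by the interaction test in limma, for 72 of the 166 named genes, most of which are given here. Of the 72, 42 passed under all alternatives run and 30 did not pass in at least 1. Leaving out any single library of the 4 groups ended 6 to 16 of the calls, and the fit of only the 12 libraries ended 22. The values here are the log2 change in knockout minus that in wild-type cells. The untreated levels of many of these genes differ between the genotypes, and how far those starting levels bear on the differences was not tested.

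Several chemokines and chaperones were more positive in knockout cells, and immediate early genes went both ways, with 3 of 29 measured called more positive and 5 more negative. The differences were 1.33 for CXCL8, 1.43 for CXCL1, 1.22 for CXCL2, 1.24 for FOS and 0.39 for EGR1, while TNFAIP2 was at -0.67, a call lost in 13 of the alternatives. Among chaperones the differences were 1.52 for HSPA8, 1.28 for HSPA1A, 1.17 for HSPA1B, 0.37 for DNAJA1 and 1.11 for DNAJB9.

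Of 33 interferon genes 8 and of 10 RNA sensor genes 2 were more negative and 0 more positive, with -1.84 for IFIT1, -1.31 for IFIT3, -0.85 for OAS1 and -0.55 for DHX58. These lists share RIGI, IFIH1, EIF2AK2, OAS1 and OAS3, so OAS1 counts in both. OAS1 lost its call in 6 of the alternatives, with an adjusted p up to 0.323, and DHX58 in 2. ZC3HAV1 was more positive, at 0.45.

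The named genes of lipid synthesis, hypoxia and ATF4 that passed were more negative. Among lipid genes the differences were -0.41 for SCD, -0.96 for ACSS2, -0.47 for LPIN1, -0.42 for HMGCS1 and -0.50 for ACAT2. LPIN1 lost its call with transcript sums, at -0.25 (adjusted p = 0.906, limma). HMGCS1 lost its call in the fit of only the 12 libraries (adjusted p = 0.0530, limma). Among genes of hypoxia and glycolysis they were -0.69 for BNIP3, -0.49 for BNIP3L, -0.82 for PFKFB4, -0.36 for LDHA and -0.40 for GAPDH. DDIT4 and CHAC1 of the ATF4 list were at -0.84 and -1.20. Of all 43 measured genes of that list, named or not, 8 were more negative and 3 more positive, with a median difference of -0.06.

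Mitochondrial transcripts differed in both directions. The differences were 0.51 for MT-ND2, 0.38 for MT-ND1, 0.80 for MT-ATP8, 0.37 for MT-CO2, 0.38 for MT-CO3 and 0.36 for MT-TT, against -0.59 for MT-RNR2 and -0.42 for MT-TV. MT-ATP8 lost its call in 10 of the alternatives, MT-CO2 in 8 and MT-CO3 in 4. Their adjusted p reached 0.118, 0.383 and 0.362 in the same test. MT-ND2 and MT-ND1 lost theirs in 1 each, the fit with no filter on low values.

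Of 40 replication genes 2 and of 42 mitosis genes 2 were more negative and 0 more positive. Of 12 G1 regulators 4 were more positive and 0 more negative. Among all genes tested 2.74% were called more positive and 2.52% more negative. Of 28 p53 targets 4, and of 14 histone genes 9, were more negative. The values were -0.37 for MCM2, -0.40 for KIF2C, -0.26 for KIF20A, -1.14 for PMAIP1, -0.23 for PLK2, -0.49 for H2AC18, -0.48 for H2AC19 and -0.52 for H2BC21. The calls of MCM2, KIF20A and H2AC18 were each lost in 12 of the alternatives. CDK6 was at 0.27, and DGCR8 of the small RNA machinery at 0.46.

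Genes of the matrix, cytoskeleton and cell identity went both ways. COL6A3 was at 0.88, TAGLN at 1.14 and ID2 at 0.51. ID1 was at -0.94, AJUBA at -0.43, CAVIN1 at -0.56, MYL12B at -0.30, ANXA2 at -0.38, ELF3 at -0.93, KRT18 at -0.34 and ATP6V1G1 of the proton pump at -0.30. AJUBA and ANXA2 each lost the call in 14 of the alternatives, and ELF3 and ATP6V1G1 each in 2. For ELF3 the adjusted p reached 0.173 in the same test. MMP2 was at -0.40, but at 0.26 with a pseudocount of 0.1 (adjusted p = 0.389, limma), since in FPKM its mean went from 7.02 to 2.31 in knockout and from 1.45 to 0.335 in wild-type cells.

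Among the remaining genes PDE7B-AS1 was at 0.55, SPOCD1 at 0.89, MIR137 at 2.10 and SLC33A1 at 1.65. More negative in knockout cells were SERPINB2 at -2.52, RPE at -2.07, SNHG26 at -1.98, C15orf48 at -1.58, PADI2 at -1.43, MGARP at -1.0, ANKRD2 at -0.67 and HTR1D at -0.40. With a pseudocount of 0.1 MGARP was at -0.55 and did not pass (adjusted p = 0.132, limma). PDE7B-AS1 lost its call in 15 of the alternatives, HTR1D in 14 and ANKRD2 in 8. Their adjusted p reached 0.105, 0.350 and 0.0800 in the same test.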

How the results depend on the processing

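The counts of members higher and lower under siPARP1 kept within 1.5 times of 4815 and 3466 in all alternatives run. They ranged from 4061 higher with 4060 lower after median-of-ratios scaling, where 50.01% of calls were higher in place of 58.1%, to 4826 higher in a fit over the members, and to 3014 lower with transcript sums. Leaving out 1 library gave 4390 to 4594 higher and 3220 to 3299 lower, and PARP1 at -2.50 to -2.41. The interaction counts of 423 and 364 fell to 243 and 229 with only the 12 libraries of the 4 groups, and leaving out 1 library gave 305 to 359 and 253 to 313; the cause was not tested beyond the smaller fit. With transcript sums PARP1 was at -0.73 and not past the threshold, where matched transcripts hold only part of its FPKM, and LIG1 reversed to 0.50, without passing. In that alternative 13521 members had both values. Of the 7790 called by the gene value, 7183 were called in the same direction and 4 in the opposite one.

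The replicate block gave 4755 higher and 3443 lower members, interaction counts of 371 and 332, and PARP1 at -2.45; among the named genes it ended the calls of IFIT2 and ATF3 and 7 of the 72 interaction calls, those of SNHG26, PDE7B-AS1, ANXA2, KIF20A, TNFAIP2 and AJUBA among them. Same-numbered untreated and siPARP1 libraries deviated from their group means with correlations of 0.02, -0.04 and 0.01, so the numbers are only numbers.

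For single genes and list counts, 4744 values under an alternative kept direction and side of the threshold or stayed within 1.5 times, 247 lost their call, 49 list counts moved by more than 1.5 times, all of 8 or fewer genes but that of ribosomal proteins higher, and 2 reversed. These were LIG1 and the interaction of MMP2, which turned from -0.40 to 0.26 with a pseudocount of 0.1. The count of replication genes that rose was 1 in place of 2 in most alternatives. Scaling to nuclear genes gives no value for mitochondrial transcripts. Precision is limited by 3 libraries a group and, without counts, cannot be set against depth: the median SE was 0.126 for members with means under 2 FPKM and 0.0964 above 100 FPKM.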
